A study of Homo sapiens with 4 samples.

Results

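The genes described here are 9 regulators of the step from G1 to S phase: the inhibitors CDKN2A, CDKN2B, CDKN2C, CDKN1A, CDKN1B and CDKN1C, the kinases CDK4 and CDK6, and the cyclin CCND1. Their TBX3 binding sites were taken by gene name: every summit of a chromatin immunoprecipitation (ChIP-seq) peak list whose deposited nearest gene was among the 9 was kept, at any distance. These were 9 of 32479 summits in replicate 1 and 12 of 40494 summits in replicate 2. They belonged to CDKN2A, CDKN2B, CDKN2C, CDKN1C and CDK6, while CDKN1A, CDKN1B, CDK4 and CCND1 had none in either list. The share of all protein-coding genes named by a summit at any distance is not given here. How many members were named is therefore not read as high or low. The study profiled TBX3 carrying a 3xHA tag in 501mel, an established human melanoma cell line, with 2 anti-HA ChIP samples and 2 input samples of unselected sheared chromatin. The labels of both ChIP samples differ in the replicate number alone, so there is 1 binding condition and no contrast between conditions. How the tagged protein was expressed, and whether the 2 samples came from separate cultures, is not given in the sources used here. The input samples were not analysed here, so no control value stands beside a site. Read depth is unknown, and the deposited lists show only what passed the authors' peak threshold.

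A cell leaves G1 when cyclin D, bound to CDK4 or CDK6, and then cyclin E, bound to CDK2, phosphorylate the retinoblastoma protein and release E2F factors. Inhibitors of the INK4 class (CDKN2 genes) bind CDK4 and CDK6 directly, and inhibitors of the CIP/KIP class (CDKN1 genes) bind complexes of cyclins and CDKs. TBX3 and its relative TBX2 are T-box transcription factors known as repressors of inhibitor genes, the ARF product of CDKN2A and CDKN1A among them, and loss of CDKN2A is a common event in melanoma.

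Each summit is a single base in hg38. A summit with a mutual nearest summit within 200 bp in the other list is called shared, and the pair forms a shared region. The score is the authors' own and has no stated scale, so it is given with its percentile within its own list, where 100 is the highest. Of the 9 replicate 1 summits 6 were shared (66.7%, 95% Wilson interval 35.4% to 87.9%), against 69.9% of all replicate 1 summits. Of the 12 replicate 2 summits 6 were shared (50%, 25.4% to 74.6%), against 56.1% of all. The intervals cover counting error only. Both shares lie near those of the whole lists. The 6 regions fell at CDKN2A (1), CDKN2B (2), CDKN2C (1) and CDK6 (2), with summits between 5 and 133 bp apart and the same nearest gene in both lists at each. At 1 of the 9 members, CDKN2A, a shared region lay no further than 10 kb from a transcription start site (TSS), and this was so for 10.1% of 19974 protein-coding genes. The CDKN2A region was even within 1 kb, as it was for 2.99% of those genes.

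**Figure D1:**
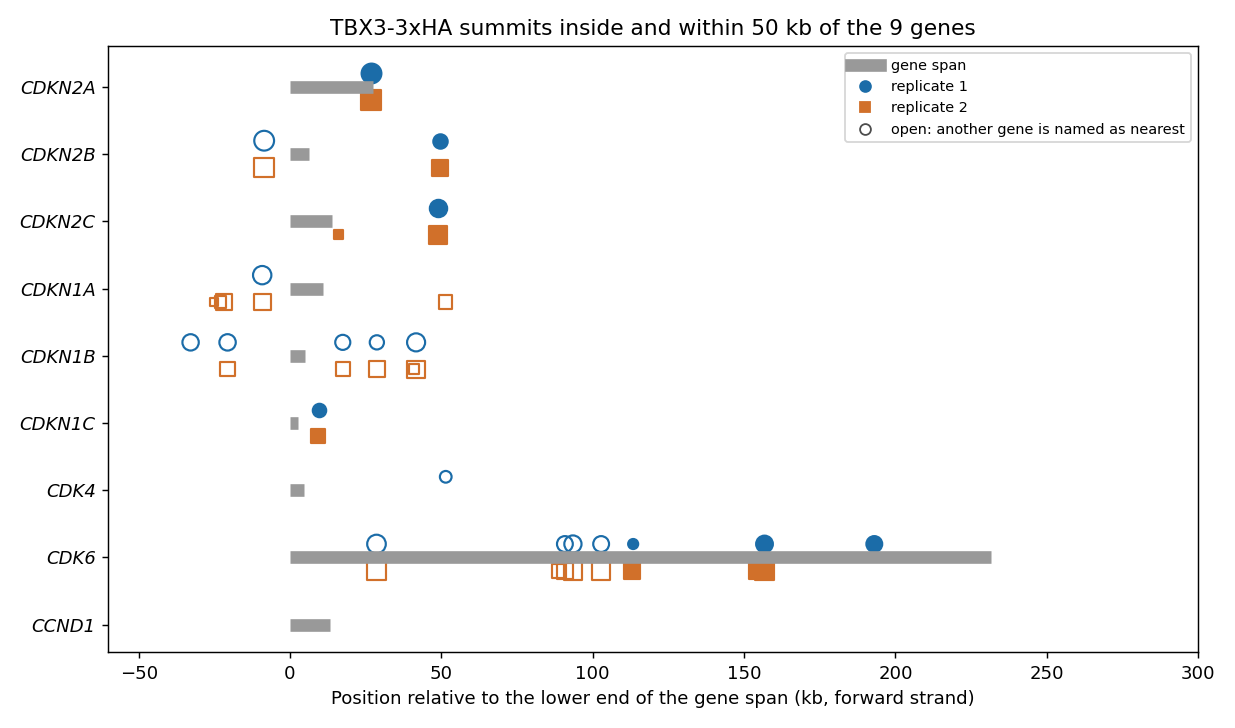
Summits inside each gene span and within 50 kb of it, as the position relative to the lower end of the span in kb on the forward strand; circles are replicate 1, squares replicate 2, and larger symbols have higher score percentiles. Open symbols have another gene named as nearest, as at CDKN1A and CDKN1B; CCND1 has no summit, and CDK6 has 7 and 8 inside its span.

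The strongest site of the set was at CDKN2A, which encodes the CDK4 and CDK6 inhibitor p16INK4a and, from an upstream first exon, ARF, an inhibitor of MDM2. The summit was at chr9:21994371 in replicate 1 and at chr9:21994376 in replicate 2, 5 bp apart. Its score was 200.0 in replicate 1 (percentile 98.2, rank 571) and 204.9 in replicate 2 (percentile 97.0, rank 1209). Both replicates thus placed this site near the top of their lists. The deposited distances were 120 bp and 115 bp downstream of a start at 21994491, that of the ARF transcript NM_058195. The CDKN2A start at 21974857, in the region of the first exon of p16INK4a, was 19.5 kb away, with no summit closer to it. The annotation class of the site was promoter of CDKN2B-AS1, a long non-coding RNA also called ANRIL that is transcribed from the opposite strand. Its start at 21994791 lay 420 bp from the replicate 1 summit and 415 bp from that of replicate 2. Another CDKN2A start in the RefSeq table, at 21995324, was 953 bp and 948 bp from the summits. Among the 573 shared regions annotated as promoters the CDKN2A region was at place 18 by mean percentile, and among all 22702 it was at place 784. The 3 genes whose strongest shared region within 1 kb had the most similar pair of percentiles, of 842 compared over 2 samples, were CAPN3 (98.4 and 97.7), GAL3ST4 (98.4 and 97.8) and GRAP2 (97.4 and 97.0).

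The bases before 2 of these starts are shown because the site lies beside the first and far from the second. They are from RefSeq (GRCh38.p14), 5′ to 3′ along each gene's strand. The summits lay 170 bp and 165 bp below the lower end of the first window.
CDKN2B-AS1, chr9:21994541-21994790, plus strand: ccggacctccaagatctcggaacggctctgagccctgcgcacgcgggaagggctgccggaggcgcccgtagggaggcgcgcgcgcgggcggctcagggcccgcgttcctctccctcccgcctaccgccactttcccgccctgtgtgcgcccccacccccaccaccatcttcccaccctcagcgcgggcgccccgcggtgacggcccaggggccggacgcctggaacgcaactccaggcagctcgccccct
CDKN2A at the p16INK4a start, chr9:21974858-21975107, minus strand: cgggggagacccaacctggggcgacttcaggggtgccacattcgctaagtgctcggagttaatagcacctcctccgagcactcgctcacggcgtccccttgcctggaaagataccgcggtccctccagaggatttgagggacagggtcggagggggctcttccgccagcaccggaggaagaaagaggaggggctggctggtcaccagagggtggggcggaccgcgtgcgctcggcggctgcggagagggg
The 7 letters GGTGTGA, a core of the T-box binding sequence, were searched on both strands (TCACACC on the other). Capitals would mark a match, and neither stretch holds one. In windows of 300 bases, from 250 before to 50 after a start, 3.45% of 35116 RefSeq promoters held these letters. The shorter GGTGTG or CACACC, which every longer match also contains, was in 16.8%. Windows were found for 7 of the 9 members, 11 in all, and 2 held the 7 letters, 1 of CDKN1A and 1 of CDKN2C. The 6 letters were in 3 of the 11, those 2 and that of CDK4. A window at the ARF start at 21994491 was not among those searched. Each match of the 7 letters is shown in capitals in 30 bases of its window.
CDKN1A, chr6:36678705-36678734, plus strand: gcgccagctgaGGTGTGAgcagctgccgaa
CDKN2C, chr1:50960687-50960716, plus strand: aatccacactgTCACACCcagtcccaagct
No summit of either list fell in any of the 11 windows. The nearest summits to the window of CDKN1A were 11.2 kb away in both replicates. Those nearest to the window of CDKN2C were 48.8 kb away in replicate 1 and 15.9 kb in replicate 2. A match is only a match of letters, and the bases under the summits themselves were not examined here.

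CDKN2B encodes p15INK4b, the INK4 inhibitor whose gene lies next to CDKN2A. It had 2 replicate 1 summits and 3 replicate 2 summits, all far upstream. The first shared region was at chr9:22052582 and chr9:22052610, 43.3 kb upstream of the CDKN2B start, in intron 3 of 3 of a CDKN2B-AS1 transcript and within an AmnSINE2 repeat. Its score was 11.6 in replicate 1 (percentile 46.6) and 24.0 in replicate 2 (percentile 65.9). The other was at chr9:22203901 and chr9:22203934, intergenic and 195 kb upstream of CDKN2B, 75.8 kb past the end of CDKN2B-AS1. It scored 24.99 in replicate 1 (percentile 70.7) and 37.5 in replicate 2 (percentile 76.3). A replicate 2 summit at chr9:22170781, 161 kb upstream, scored 23.02 (percentile 64.8), and the nearest replicate 1 summit was 33.1 kb away. The CDKN2B span (chr9:22002903-22009313) held no summit, and the closest was the CDKN2A site 8.53 kb below it.

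**Figure D2:**
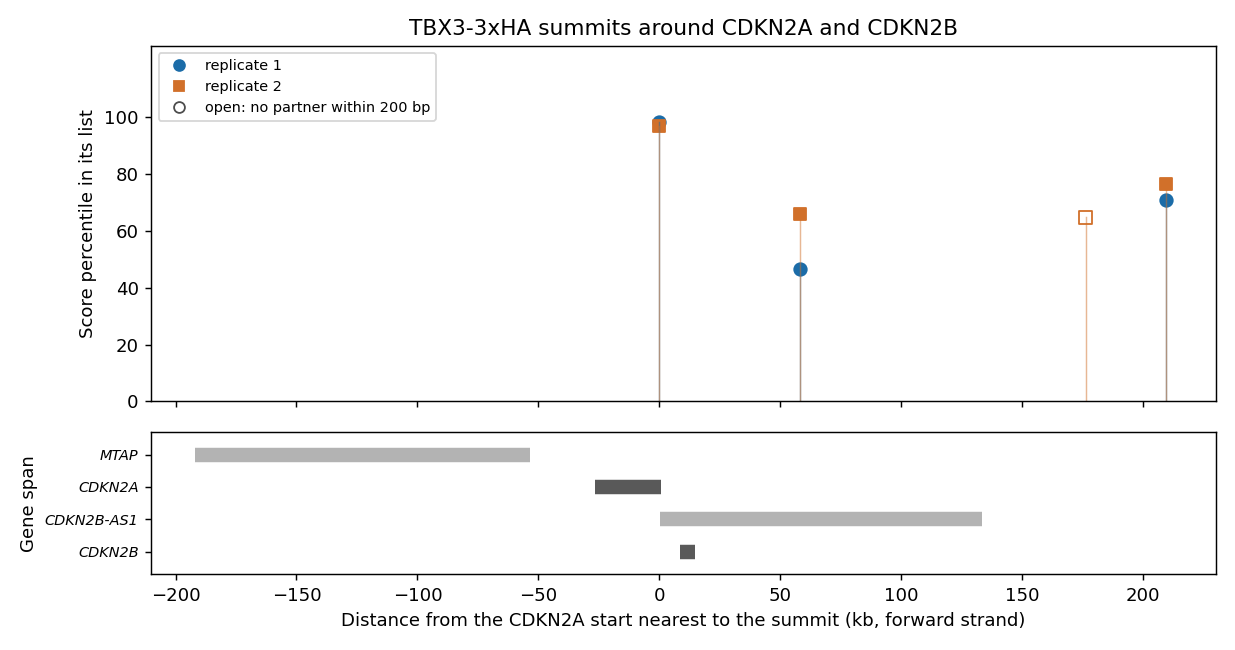
Score percentile of each summit (vertical axis) against its distance in kb from the CDKN2A start at the summit (horizontal axis), with gene spans below; filled symbols have a partner within 200 bp in the other replicate. The site at 0 stands at percentiles 98.2 and 97.0, and the others lie above it on the forward strand at 46.6 to 76.3.

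CDKN2C encodes p18INK4c, another INK4 inhibitor. Its shared region was at chr1:51009624 and chr1:51009646, intergenic, 39.7 kb downstream of the start used by the deposited annotation and within an L1MEg2 repeat. The score was 27.0 in replicate 1 (percentile 72.7) and 47.7 in replicate 2 (percentile 80.8). Replicate 2 also had a summit at chr1:50976677, 6.71 kb downstream of the start, with a score of 4.83 (percentile 12.1). Replicate 1 had no summit within 32.9 kb of that position.

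The CIP/KIP class had no shared region by gene name. CDKN1C, an imprinted gene encoding p57KIP2, had 1 summit in each list, at chr11:2892729 in replicate 1 and chr11:2892477 in replicate 2. They lay 6.96 kb and 6.71 kb upstream of the CDKN1C start, in intron 2 of 2 of another transcript, NM_001302862. Their scores were 9.43 (percentile 39.2) and 9.90 (percentile 39.3). With 252 bp between them they missed the pairing distance of 200 bp, and a limit of 500 bp would count them as shared.

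CDKN1A (p21CIP1) and CDKN1B (p27KIP1) were named as nearest gene by no summit in either list. The CDKN1A span (chr6:36676463-36687332) held no summit. A shared region at chr6:36667281 and chr6:36667293 lay 9.18 kb below it and had PANDAR, a non-coding RNA gene upstream of CDKN1A, as nearest gene. It scored 43.5 in replicate 1 (percentile 82.9) and 25.7 in replicate 2 (percentile 67.5). Its percentile was above that of 8 of the 9 member sites in replicate 1 and 6 of the 12 in replicate 2, though the rule by gene name leaves it out. Within 50 kb of CDKN1A replicate 2 had 4 more summits, at percentiles from 4.96 to 57.7, and none had a partner. Around CDKN1B (chr12:12717368-12722369) were 4 shared regions within 50 kb, with GPR19, APOLD1 or MIR613 as nearest gene. The closest, at chr12:12734799 and chr12:12734790, lay 12.4 kb above the span in an intron and had percentiles of 52.4 and 43.5. One lay 20.6 kb below, at the promoter of GPR19, with percentiles of 64.1 and 46.6. The strongest, at chr12:12759022 and chr12:12759062, lay 36.7 kb above the span, with scores of 37.3 (percentile 80.0) and 34.3 (percentile 74.4). It was in a Tigger7 repeat, and 2 of the 4 regions lay in repeats.

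CDK6, a partner of D-type cyclins, had the most sites by gene name, 4 in replicate 1 and 5 in replicate 2, all at least 36.0 kb from its starts. The first shared region was at chr7:92761666 and chr7:92761646, in intron 3 of 7. It lay 72.3 kb downstream of the start at 92833950 that the deposited annotation used. It scored 22.1 in replicate 1 (percentile 67.3) and 74.6 in replicate 2 (percentile 87.8). The other was intergenic, at chr7:92955401 and chr7:92955268, 119 kb upstream of a second deposited start at 92836627. It scored 9.28 in replicate 1 (percentile 37.8) and 26.0 in replicate 2 (percentile 67.9), and its 133 bp gap was the widest of the 6 regions. Both regions ranked higher in replicate 2.

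Of the unshared CDK6 summits, those in intron 4 stood at chr7:92718278 (score 5.68, percentile 17.2) and chr7:92717819 (score 18.3, percentile 58.4). They were 459 bp apart. Replicate 1 alone had a summit at chr7:92797932 in intron 2, with a score of 16.6 (percentile 58.9) that it had in common with other summits, 398 in all. Replicate 2 alone had one at chr7:92759251 in intron 3 (29.01, percentile 70.5) and one at chr7:92904426 in an intron of CDK6-AS1 (6.22, percentile 21.4).

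The deposited nearest gene understates the sites inside CDK6, because the start of FAM133B is nearer to the far end of this long gene. The CDK6 span (chr7:92604921-92836573, 232 kb) held 7 summits in replicate 1 and 8 in replicate 2, all annotated to CDK6 introns. They formed 5 shared regions, of which 4 had FAM133B as nearest gene. The strongest of these 4 was in intron 5 at chr7:92633495 and chr7:92633438, with scores of 52.0 (percentile 85.8) and 87.7 (percentile 89.8). The other 3 were in intron 4, with percentiles from 58.9 to 71.7 in replicate 1 and from 59.1 to 76.9 in replicate 2. Of all protein-coding genes 2.22% had as many shared regions in their span or more. Among the 1136 genes at least as long as CDK6 it was 25.8%, with a median of 2 regions. CDK6 stands at the short end of that set, so 25.8% is not a share for genes of its own length.

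**Figure D3:**
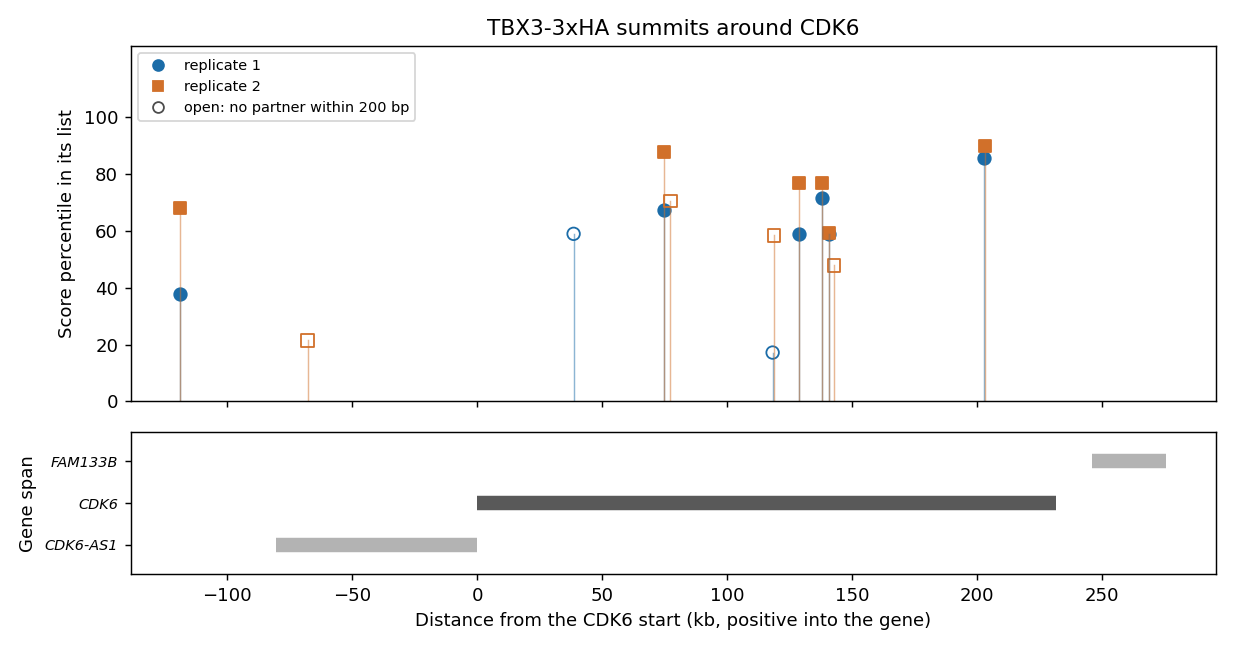
Score percentile of each summit (vertical axis) against its distance in kb from the CDK6 start, positive into the gene (horizontal axis). That start is the upper end of the span, at 92836573. Gene spans are below, and filled symbols have a partner within 200 bp. Of the 5 shared regions inside CDK6, that nearest to FAM133B is the strongest, at percentiles 85.8 and 89.8.

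CDK4 and CCND1, the kinase and cyclin of the best known G1 complex, had no site by gene name. Within 50 kb of CDK4 (chr12:57747727-57752310) there was a single replicate 1 summit, 46.9 kb above it in an intron of a neighbouring gene, with a score of 7.12 (percentile 27.2) and no partner. The nearest shared region was 52.8 kb away, at percentiles of 10.7 and 13.8. CCND1 (chr11:69641156-69654474) had no summit within 50 kb in either list. Its nearest shared region was 82.4 kb below it, with LINC01488 as nearest gene and percentiles of 63.1 and 86.3. Of protein-coding genes 48.4% had no shared region inside or within 50 kb, so its absence at CDK4 and CCND1 is common.

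Counted by position, 4 of the 9 members had a shared region inside the span or within 10 kb of it (CDKN2A, CDKN2B, CDKN1A and CDK6), and the regions of CDKN2A and CDKN2B were 1 and the same. The share of all protein-coding genes was 28.6%. The median mean percentile of the 6 regions chosen by gene name was 75.1, from 52.9 to 97.6, and that of all shared regions was 65.8. The percentile was higher in replicate 2 at 5 of the 6, and at 67.0% of all shared regions. CDKN2A was the exception. Sharing followed the score: none of the 3 member summits in the lowest 25% of their list had a partner, and all 5 above the 75th percentile had one. Over all summits those shares were 29.7% and 97.6% in replicate 1, and 16.3% and 96.3% in replicate 2.

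**Figure D4:**
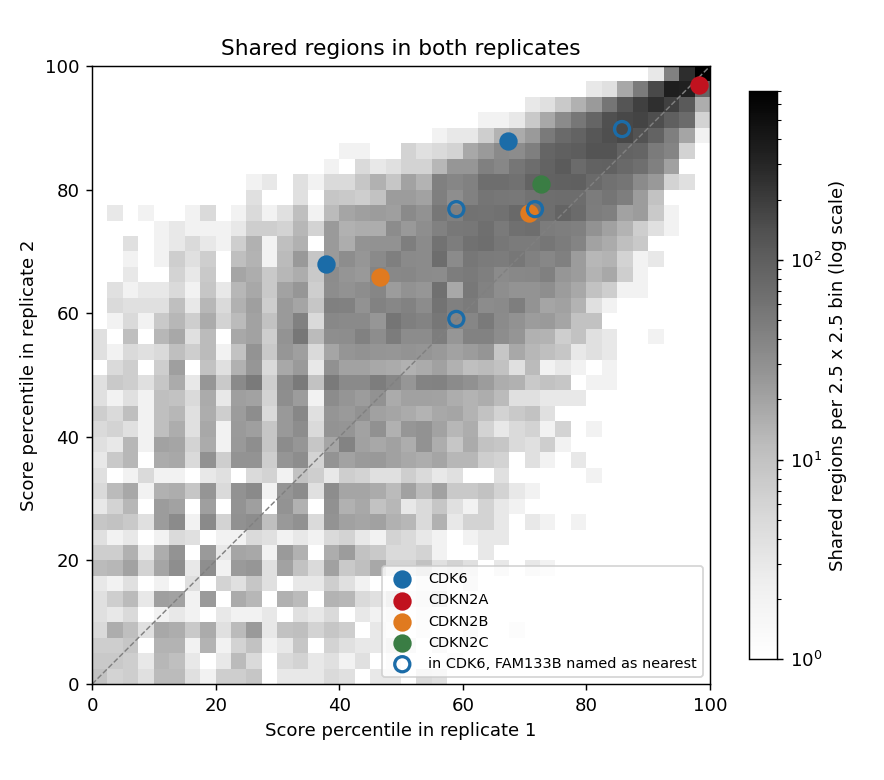
Score percentile in replicate 1 (horizontal axis) and replicate 2 (vertical axis) of all 22702 shared regions, as counts per bin in grey on a log scale, with the 6 member regions as filled points and 4 further regions inside CDK6 as open points. CDKN2A lies in the top corner and is the only one of the 6 below the dashed line of equal percentiles.

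Member summits were mostly intronic or intergenic, as were the lists. In replicate 1, 5 of 9 were intronic (39.4% of all summits), 3 intergenic (53.3%) and 1 at a promoter (2.33%). In replicate 2, 6 of 12 were intronic (40.7%), 5 intergenic (52.8%) and 1 at a promoter (2.12%). In each list 2 lay in repeats, where 43.3% of all summits did.

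Of 17 further genes of the G1 to S transition, 0 had such a region no further than 10 kb from a start by gene name, against the 10.1% of protein-coding genes given above. These were CDKN2D, CDK2, CCND2, CCND3, CCNE1, CCNE2, CCNA2, RB1, RBL1, RBL2, E2F1, E2F2, E2F3, CDC25A, SKP2, CKS1B and MDM2. By position, 3 of the 17 (CDK2, RBL1 and E2F3) had a shared region inside the span or within 10 kb of it, where 28.6% of protein-coding genes did. A summit in either list named 7 of the 17, and a shared region at any distance named 2. Shares of all protein-coding genes at any distance are not given here, so neither count is read as high or low. RBL1, a relative of RB1, had its region 24.5 kb from a start, and E2F3, an activating E2F factor, had its region 35.3 kb from one. No summit of either list lay inside or within 50 kb of E2F1, E2F2, CDKN2D or CKS1B.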

How the data were processed

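Per the labels, the samples were anti-HA ChIP and input chromatin of 501mel cells, and the sample titles gave the groups and replicates. Per the file headers, the authors annotated the summits of each ChIP sample with HOMER annotatePeaks.pl against hg38, without pooling. Per the submitters' processing notes, the tools included cutadapt 2.8, Bowtie2 2.3.5, MACS2 2.1.2 and SAMtools 1.9. The score is the one deposited by the authors; its scale, and the control and threshold of peak calling, are not given in the sources used here. It serves only to rank summits within a list. Distances to a TSS, nearest genes, annotation classes and repeats are the deposited ones. A percentile is the rank of a score in its list, ties averaged.

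Summits were paired with Python 3.11.15 when mutually nearest within 200 bp. The pairing was run on simulated summits whose partners lay inside that limit and whose other neighbours lay outside it. That run checks the code only, not how well the limit suits these lists. Gene spans and promoter sequences are from RefSeq (GRCh38.p14), where 99.6% of 12468 deposited gene identifiers matched. Of the 8 member start sites implied by the deposited distances 7 lay inside the RefSeq span and the other 54 bp outside. The members and gene lists were chosen with earlier results of these data known, so no test was run on them. All 9 members are named. Regions within 10 kb of a start are given in full, as are the nearest and the strongest region of the other members. One gene of the planned list of further G1 to S genes is not reported here.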

Additional observations from a re-analysis of the deposited data

How the results depend on the processing

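Over the 6 results, 52 alternatives were run. Of these 39 gave a similar value: a count within 1.5 times, a share inside its interval, or a median percentile within 6.78. That last limit is the SD of the 2 replicate medians, so it cannot judge the medians from a single replicate. The intervals of the shares are wide. For the further G1 to S genes the main count was 0, and closer pairing or a 1 kb limit could only leave it at 0. So the 39 include values that could not, or could hardly, move. The alternatives varied the pairing distance (50, 100 and 500 bp), the scores, repeats, the distance to the TSS, the gene assignment and the replicates used. The assignment by gene span was among the 52 for the members only. For the further genes it gives 3 of 17 in place of 0, a change that the tally leaves out. Pairing within 500 bp, which adds CDKN1C and the CDK6 intron 4 summits, gave 88.9% of replicate 1 member summits a partner, 2 members within 10 kb and a median percentile of 64.9. The 5000 highest scores of each list left 1 shared member region, with 100% of replicate 1 member summits paired and a median percentile of 97.6, since only CDKN2A remained in both. Within 50 kb of a TSS, 3 members and 2 of the further G1 to S genes had a shared region. A wider limit can only raise or keep such a count, and the share of all protein-coding genes at 50 kb is not given here. By gene span, 4 members had a shared region within 10 kb. Single lists, with no pairing, gave 9 to 12 member summits in place of 6 regions, 2 to 3 members within 10 kb, and 0 to 1 further genes. Shares of all protein-coding genes in single lists, or with pairing within 500 bp, are not given here either. No paired analysis was possible because the input samples that carry the same replicate numbers were not analysed here. The unknown depth limits what the absence of a summit can show, and with 9 and 12 summits the shares are imprecise.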

Other observations

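Outside the 9 genes, the strongest sites inside a gene of the G1 to S list had other genes named as nearest; they were singled out after their values were seen. In intron 1 of 6 of E2F3, shared summits at chr6:20479674 and chr6:20479622 had CDKAL1 as nearest gene. They scored 278.7 in replicate 1 (percentile 99.1) and 385.1 in replicate 2 (percentile 99.2), above the CDKN2A site in each list. In intron 5 of 6 of CDK2, the kinase partner of cyclin E, shared summits at chr12:55970825 and chr12:55970783 had RAB5B as nearest gene, 3.09 kb and 3.13 kb away. They scored 165.1 (percentile 97.5) and 217.9 (percentile 97.4). CDK2 adjoins the melanosome gene PMEL, whose 2 shared sites lay 1500 bp and 9578 bp below the CDK2 span in replicate 1. Further replicate 1 summits nearest to PMEL, at 12272 bp and 14126 bp, had no partner. Inside RB1, each list had 1 summit nearest to LPAR6, a gene within an RB1 intron, and these were not shared. CCND2 had a replicate 2 summit 1.03 kb upstream of its start (percentile 54.6), with no partner in replicate 1.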
